A study of Mus musculus with 10 samples.

Results

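The 10 genes described here encode receptors and co-receptors for bacterial molecules, and were selected by symbol from the 55487 genes of the count table: *Tlr1*, *Tlr2*, *Tlr4*, *Tlr6*, *Tlr8*, *Tlr13*, *Nod1*, *Nod2*, *Cd14* and *Ly96*. All 10 were found, and all 10 passed the filter on low counts. RNA was sequenced from myeloid cells sorted from the spinal cords of 5 male C57BL/6 mice, aged 8 to 12 weeks, that carried the *Arg1*-eYFP reporter allele Arg1tm1Lky and were at the peak of experimental autoimmune encephalomyelitis (EAE). From each animal, 200000 YFP+ cells (ARG1+) and 100000 YFP- cells (ARG1-) were taken from the same gate of viable CD3-Ly6G-CD45+CX3CR1+ cells, so the 10 libraries form 5 pairs named m2, m6, m234, m235 and m236. Both groups came from diseased animals that had received a myelin oligodendrocyte glycoprotein peptide in complete Freund's adjuvant, which contains mycobacterial material, and pertussis toxin. The YFP signal reports activity of the *Arg1* promoter and not the enzyme itself, and the gate holds both monocyte-derived cells and central nervous system-associated macrophages. The comparison asks how receptors for bacterial products differ between ARG1+ and ARG1- cells of the same spinal cords.

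As background, Toll-like receptors (TLRs) are membrane receptors that pair on binding their ligand and recruit the adaptors MyD88 or TRIF, which lead through IRAK kinases and TRAF6 to TAK1, the IKK complex and NF-kB. TLR2 recognizes bacterial lipoproteins as a dimer with TLR1 or with TLR6. TLR4 recognizes lipopolysaccharide bound to MD-2, the product of *Ly96*, after transfer from CD14. TLR8 and TLR13 are known as endosomal receptors, the latter for bacterial ribosomal RNA, so these 2 members are not receptors of the cell surface. NOD1 and NOD2 lie in the cytosol, bind fragments of bacterial peptidoglycan and signal through the kinase RIPK2. In monocytes and macrophages these receptors are known to start the production of cytokines and chemokines.

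In GRCm38 coordinates, *Tlr2* lies on the reverse strand of chromosome 3 from 83836272 to 83841767, and *Tlr1* (64924679 to 64933563) and *Tlr6* (64952031 to 64960097) lie next to each other on the reverse strand of chromosome 5. *Tlr4* lies on chromosome 4 from 66827584 to 66930284 and *Ly96* on chromosome 1 from 16688051 to 16709611, both on the forward strand. *Tlr8* (167242696 to 167264329, reverse strand) and *Tlr13* (106143204 to 106160493, forward strand) lie on chromosome X. *Nod1* lies on the reverse strand of chromosome 6 from 54923949 to 54972612, and *Nod2* on the forward strand of chromosome 8 from 88647315 to 88688474. No exon of these genes overlapped an exon of another gene. *Tlr1* and *Tlr6* are near copies of each other over part of their length. Of the 50-base stretches of *Tlr1* transcripts, 15.4% (513 of 3332) also occurred in another gene, 454 of them in *Tlr6*, and of those of *Tlr6* 12.3% (456 of 3702) did. Reads from these stretches cannot be assigned to 1 gene, so the counts of both are uncertain to that extent, whereas the other 8 genes shared at most 0.259% of their stretches. The longest coding run that the pair shared, 229 bases, spanned positions 1468 to 1696 of the 2388-base open reading frame of *Tlr1* and positions 1507 to 1735 of the 2421-base frame of *Tlr6*. It is shown, 5′ to 3′ on the transcript strand, as the longest coding run in which reads are ambiguous. It does not hold all of the 454 shared stretches, and others lie outside it.
Tlr1_Tlr6_longest_shared_coding_run: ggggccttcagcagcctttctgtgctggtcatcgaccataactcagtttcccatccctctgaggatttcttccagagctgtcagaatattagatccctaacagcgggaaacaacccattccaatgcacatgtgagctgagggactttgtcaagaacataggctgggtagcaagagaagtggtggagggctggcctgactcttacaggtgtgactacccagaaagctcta

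The 250 bases before the RefSeq start (GRCm38.p6) are printed for 4 members, *Tlr2* and *Nod2*, whose ARG1+ and ARG1- libraries did not overlap, and *Tlr8* and *Tlr13*, the endosomal pair with the largest positive fold changes. They run 5′ to 3′ on the strand of the gene, at chr3:83841609-83841858 (reverse) for *Tlr2*, chr8:88647097-88647346 (forward) for *Nod2*, chrX:167264330-167264579 (reverse) for *Tlr8* and chrX:106143025-106143274 (forward) for *Tlr13*. Capitals mark matches on either strand to 5 short motifs, namely the PU.1 core GAGGAA, AP-1 (TGANTCA), the GC box GGGCGG, the NF-kB motif and an interferon response element (ISRE-like) motif.
Tlr2: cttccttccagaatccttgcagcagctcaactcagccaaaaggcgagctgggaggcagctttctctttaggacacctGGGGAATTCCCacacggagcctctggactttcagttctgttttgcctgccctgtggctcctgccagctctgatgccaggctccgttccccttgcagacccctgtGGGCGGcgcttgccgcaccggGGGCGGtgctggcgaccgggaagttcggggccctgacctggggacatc
Nod2: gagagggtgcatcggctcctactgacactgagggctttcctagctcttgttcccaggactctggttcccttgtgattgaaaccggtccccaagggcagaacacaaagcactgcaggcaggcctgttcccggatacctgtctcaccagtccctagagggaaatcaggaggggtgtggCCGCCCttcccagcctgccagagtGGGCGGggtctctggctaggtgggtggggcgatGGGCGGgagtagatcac
Tlr8: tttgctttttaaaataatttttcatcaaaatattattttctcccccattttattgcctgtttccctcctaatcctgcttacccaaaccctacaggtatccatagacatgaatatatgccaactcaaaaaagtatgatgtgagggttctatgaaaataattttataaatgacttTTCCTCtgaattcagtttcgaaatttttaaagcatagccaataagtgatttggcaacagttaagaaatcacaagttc
Tlr13: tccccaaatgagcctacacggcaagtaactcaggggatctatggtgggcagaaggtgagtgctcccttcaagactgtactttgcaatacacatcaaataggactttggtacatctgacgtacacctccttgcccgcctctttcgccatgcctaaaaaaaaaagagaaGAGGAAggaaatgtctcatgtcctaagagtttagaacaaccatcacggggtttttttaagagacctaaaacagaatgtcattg

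The *Tlr2* sequence held an NF-kB match beginning 173 bases before the start, which overlapped another beginning 172 bases before it, and GC boxes at 69 and 48 bases. The *Nod2* sequence held GC boxes at 74, 50 and 17 bases. *Tlr8* and *Tlr13* each held 1 PU.1 core, at 77 and 83 bases. Among 32851 promoter sequences of the same length, the PU.1 core was found in 23.3%, AP-1 in 6.75%, NF-kB in 7.25%, the ISRE-like motif in 2.98% and the GC box in 32.7%. These are matches of letters, and binding was not measured. The sequences before 10 starts of 7 members were searched in all.

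Library totals ran from 28870482 to 33826355 counts in ARG1+ cells. In ARG1- cells the library of m234 had 8396863 counts and the other 4 had 28212174 to 35455643. *Arg1*, the gene that drove the reporter, was at 588 to 1049 CPM (counts relative to the TMM-scaled library total) in ARG1+ and 14.3 to 27.0 CPM in ARG1- libraries, as the sort labels say. *Ptprc* (CD45) was at 595 to 827 CPM over all libraries, and *Cd3e* and *Ly6g* were at most 0.234 and 0.129 CPM. *Cx3cr1*, also a marker of the gate, varied widely and had the lower median in ARG1+ cells. It was at 43.9 to 233 CPM (median 140) in ARG1+ and 102 to 565 CPM (median 219) in ARG1- libraries, with overlapping groups. In bulk libraries fewer cells that express a gene and less RNA per cell cannot be told apart.

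Of the 10 members, 3 fell in ARG1+ cells (*Tlr2*, *Nod1* and *Nod2*), 1 rose (*Tlr8*) and 6 did not pass the test, at an FDR below 0.05 in edgeR's quasi-likelihood test. Over the 13740 genes tested, 6.15% were called lower and 6.82% higher. With total counts as library sizes the calls over all genes split into 701 higher and 1282 lower, against 937 and 845 with TMM sizes, and the same 4 members were called in the same direction. None of the members was past an absolute log2 fold change of 1, a limit that 0.56% of tested genes passed upwards and 0.888% downwards. The median log2 fold change of the members was -0.0141, and that of all tested genes was -0.00222. When the animal entered the fit as a block, 3 members were called lower and 3 higher, *Tlr13* and *Ly96* being added, with 18.3% and 16.8% of all genes called in these directions. In 2 members, *Tlr2* and *Nod2*, every ARG1+ library lay below every ARG1- library, as in 5.2% of tested genes.

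**Figure D1:**
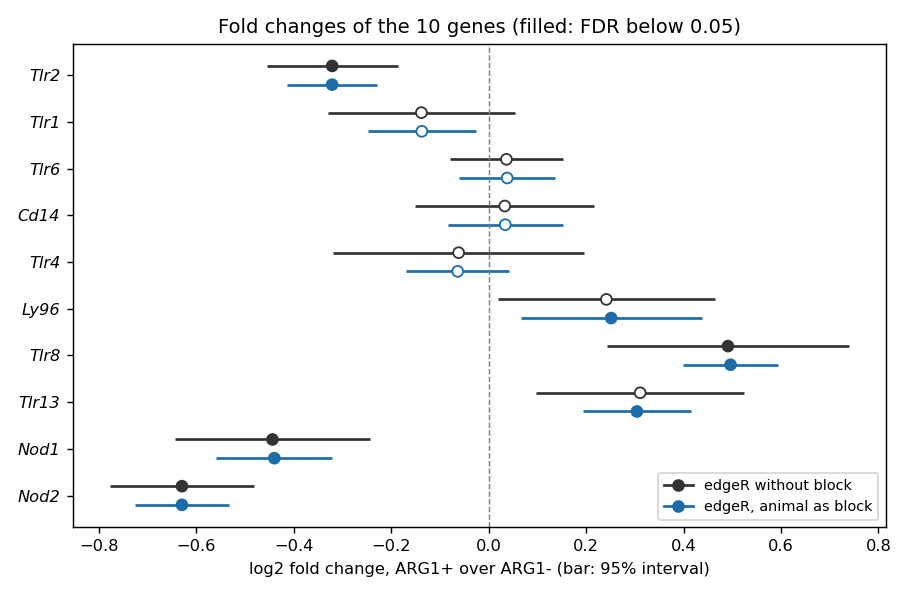
Log2 fold change of each gene between ARG1+ and ARG1- cells on the horizontal axis, with its 95% interval, from edgeR without a block (grey) and with the animal as a block (blue); filled points passed an FDR of 0.05. *Nod2*, *Nod1* and *Tlr2* lie below 0 and *Tlr8* above 0 in both fits, while *Tlr13* and *Ly96* are filled only with the block.

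*Tlr2*, the lipoprotein receptor, was the most abundant TLR of these cells. It measured 1022, 958, 972, 879 and 949 CPM in the ARG1+ libraries of m2, m6, m234, m235 and m236, an order kept for all values by animal. In the ARG1- libraries it measured 1259, 1108, 1199, 1159 and 1247 CPM. The highest ARG1+ library, that of m2, lay below the lowest ARG1- library, that of m6. The group means were 956 ± 51.4 CPM and 1194 ± 62.7 CPM (SD, n = 5 each), and *Tlr2* fell by 19.9%, a log2 fold change of -0.32 (SE 0.0617, edgeR FDR = 0.00660). The exact permutation test of the library labels gave a 2-sided p of 0.00794, the smallest it can give. This test, here and for the genes that follow, treats the libraries as independent and ignores the pairs. Exact permutation by swaps within the 5 animals could not give a 2-sided p below 0.0625. Within animals the log2 difference ran from -0.40 in m235 to -0.21 in m6.

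The dimer partners of *Tlr2* did not pass the test. *Tlr1* was at 28.8 to 38.5 CPM in ARG1+ and 34.1 to 41.6 CPM in ARG1- libraries (log2 fold change -0.14, 95% interval -0.33 to 0.055, edgeR FDR = 0.320). It was lower in the ARG1+ library of 4 animals and slightly higher in that of m236. *Tlr6* was at 32.4 to 35.3 and 30.5 to 34.6 CPM (log2 fold change 0.037, 95% interval -0.078 to 0.15, edgeR FDR = 0.683), with overlapping groups and the smallest spread of the 10 genes relative to its level. With total counts as library sizes the value for *Tlr6* was -0.0033. With the animal as a block the interval of *Tlr1* was -0.25 to -0.026 (edgeR FDR = 0.0563), still without a call.

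A ratio of 2 genes within a library does not depend on library size, and is given here per kilobase of exon, as a description without a test. *Tlr2* RNA was 31.8 to 36.5 times that of *Tlr6* in ARG1+ libraries and 40.9 to 47.2 times in ARG1- libraries, without overlap and lower in ARG1+ in all 5 animals. Relative to *Tlr1*, *Tlr2* was at 25.8 to 31.9 times in ARG1+ and 28.9 to 35.2 times in ARG1- libraries. This ratio was lower in ARG1+ cells of all 5 animals as well, but the groups overlapped. *Tlr1* stood at 1.01 to 1.38 times *Tlr6* in ARG1+ and 1.16 to 1.53 times in ARG1- libraries, with m236 going the other way. The stretches that *Tlr1* and *Tlr6* share enter all 3 ratios.

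**Figure D2:**
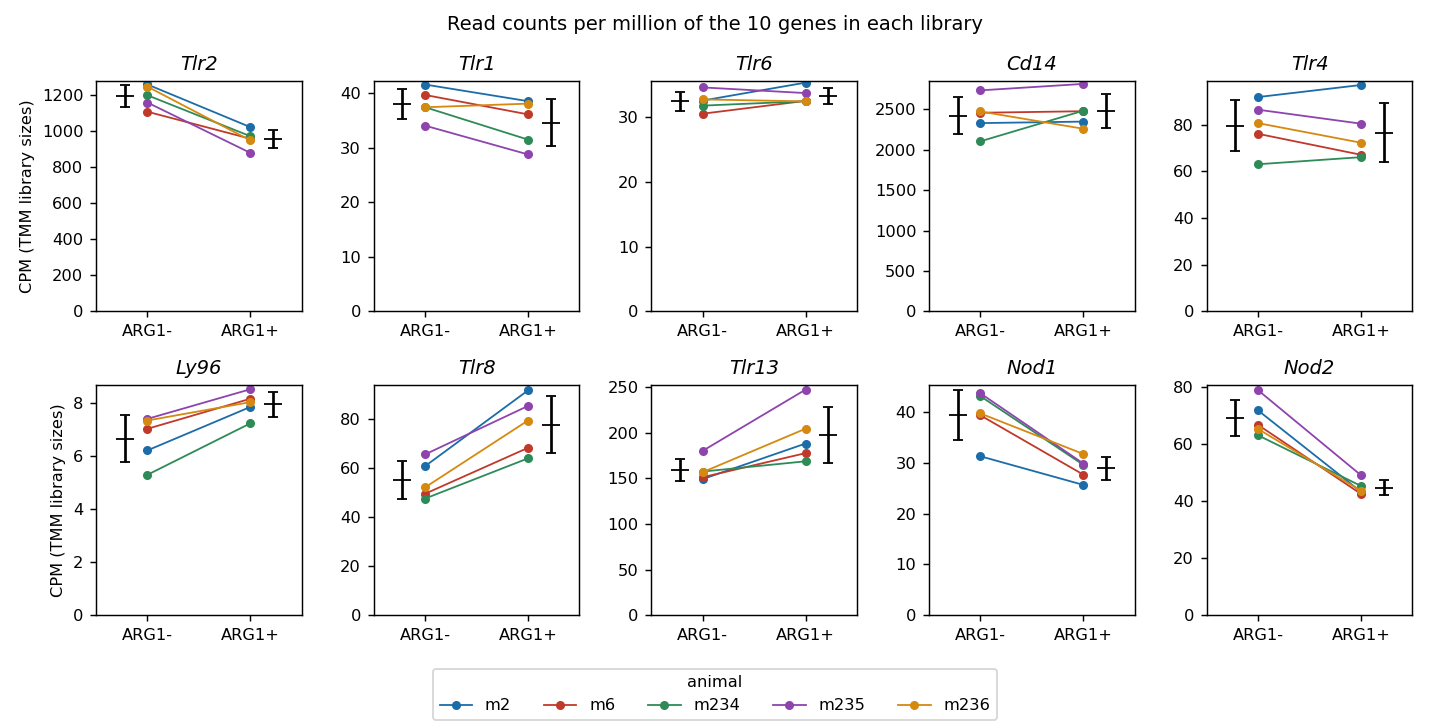
CPM of each gene (vertical axis, from 0) in the ARG1- and ARG1+ library of each animal, joined by a line; black marks are group means with SD. All 5 lines fall for *Tlr2*, *Nod1* and *Nod2*, and all 5 rise for *Tlr8*, *Tlr13* and *Ly96*.

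*Cd14* lies on the reverse strand of chromosome 18 from 36725067 to 36726798. The lipopolysaccharide receptor showed no called change in any of its 3 genes without a block. *Cd14*, the co-receptor that hands over lipopolysaccharide, was the most abundant of all members at 2259 to 2814 CPM in ARG1+ and 2104 to 2734 CPM in ARG1- libraries (log2 fold change 0.033, 95% interval -0.15 to 0.22, edgeR FDR = 0.828). Its sign was not stable, with -0.00686 under total counts and values down to -0.0169 with 1 library left out. *Tlr4* was at 66.1 to 97.0 and 63.1 to 91.9 CPM (log2 fold change -0.061, 95% interval -0.32 to 0.20, edgeR FDR = 0.767), and varied more between animals than between the groups, both libraries of m2 being the highest of their group.

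*Ly96*, which encodes MD-2, had the lowest counts of the members, from 45 in the ARG1- library of m234 to 281. In ARG1+ libraries it was at 7.85, 8.16, 7.24, 8.52 and 8.03 CPM. In ARG1- libraries it was at 6.22, 7.03, 5.30, 7.40 and 7.34 CPM. The value was higher in the ARG1+ library of all 5 animals, a pattern that 20% of tested genes showed, but the groups overlapped. The log2 fold change was 0.24 (SE 0.102, edgeR FDR = 0.135, exact permutation p = 0.0238), and 0.25 with an FDR of 0.0397 when the animal was a block. That blocked call was lost on leaving out m2, m6, m235 or m236, with FDR values up to 0.129. Within libraries the ratio of *Tlr4* to *Ly96* was 0.951 to 1.43 in ARG1+ and 1.25 to 1.71 in ARG1- cells, lower in ARG1+ in all 5 animals with overlapping groups. The ratio of *Cd14* to *Tlr4* was 80.6 to 125 and 84.5 to 111.

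**Figure D3:**
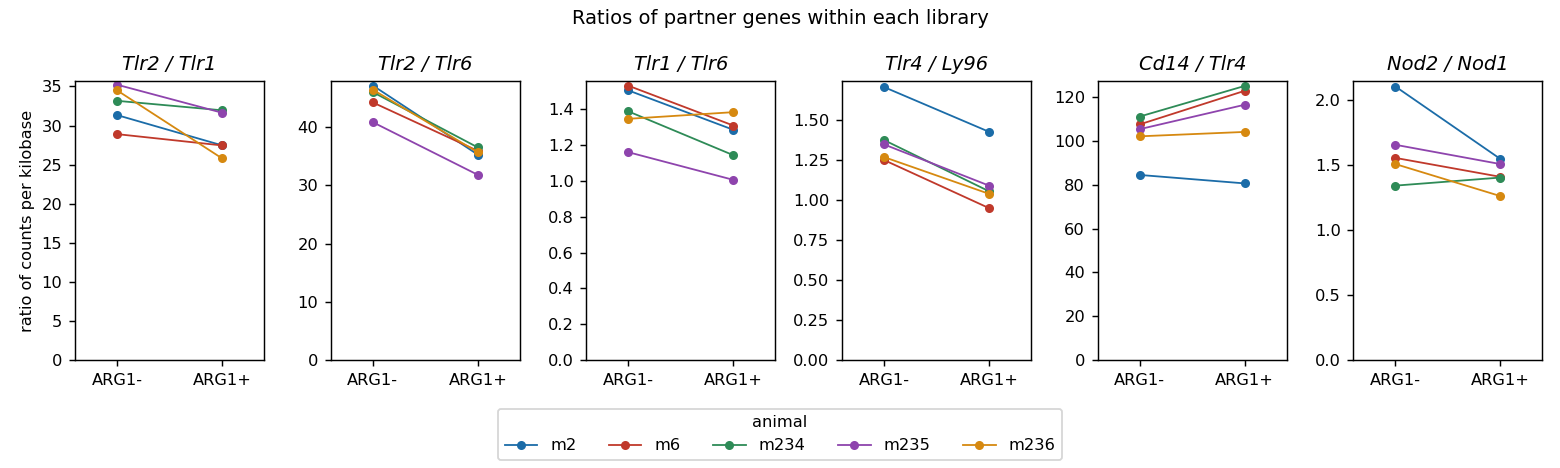
Ratio of counts per kilobase between partner genes (vertical axis, from 0) in the ARG1- and ARG1+ library of each animal, joined by a line. The ratio of *Tlr2* to *Tlr6* separates the groups, and that of *Tlr4* to *Ly96* falls in each animal while the groups overlap.

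The endosomal receptors had the 2 highest fold changes of the members. *Tlr8* measured 91.6, 68.2, 63.9, 85.3 and 79.3 CPM in ARG1+ libraries. In ARG1- libraries it measured 60.7, 49.5, 47.6, 65.5 and 52.1 CPM. The ARG1+ library was the higher in each animal, but the ARG1- library of m235 lay above the ARG1+ library of m234, so the groups overlapped. The means were 77.7 ± 11.5 CPM and 55.1 ± 7.71 CPM (SD, n = 5 each), and *Tlr8* rose by 40.6%, a log2 fold change of 0.49 (SE 0.114, edgeR FDR = 0.0166, exact permutation p = 0.0159). Without a block this call was lost on leaving out both libraries of m2 (edgeR FDR = 0.0585), m6 (0.0587) or m236 (0.0778). With the animal as a block it was kept in all 5 of these fits. Within animals the log2 difference ran from 0.38 to 0.61.

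*Tlr13*, the receptor for bacterial ribosomal RNA, was the second most abundant TLR per length. It was at 188, 178, 169, 247 and 204 CPM in ARG1+ libraries. In ARG1- libraries it was at 149, 151, 157, 180.2 and 157 CPM. The ARG1+ library was again the higher in each animal, and the groups overlapped only through the ARG1- library of m235. The means were 197 ± 30.9 CPM and 159 ± 12.4 CPM (SD, n = 5 each). The log2 fold change of 0.31 (SE 0.0981) did not pass the test without a block (edgeR FDR = 0.0571, exact permutation p = 0.0238), and passed it at 0.30 with the animal as a block (edgeR FDR = 0.00125), also with each animal left out of that fit. Without a block it passed on leaving out the ARG1- library of m235 (edgeR FDR = 0.0391) or the ARG1+ library of m234 (0.0315), and in DESeq2 (0.0223). *Tlr7*, an endosomal receptor for single-stranded RNA outside the members, was at 115 and 91.3 CPM on average (log2 fold change 0.33, edgeR FDR = 0.0375), and this call was lost on leaving out any of 7 single libraries (FDR up to 0.088).

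Both NOD sensors fell in ARG1+ cells. *Nod2*, the sensor of muramyl dipeptide, measured 43.4, 42.6, 45.4, 49.2 and 43.7 CPM in ARG1+ libraries. In ARG1- libraries it measured 71.9, 66.8, 63.2, 79.0 and 65.4 CPM. The groups were separate, and the ARG1+ libraries lay close together. *Nod2* fell by 35.3% from a mean of 69.3 ± 6.32 CPM to 44.9 ± 2.62 CPM (SD, n = 5 each). The log2 fold change was -0.63 (SE 0.0679, edgeR FDR = 3.10e-04, exact permutation p = 0.00794, the smallest possible). This was the largest absolute fold change of the 10 genes in the fit without a block. The calls of *Nod2* and of *Tlr2* were kept at the FDR limit of 0.05 in all alternative settings run.

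*Nod1*, the sensor of peptidoglycan fragments that carry diaminopimelic acid, measured 25.6, 27.7, 29.6, 29.8 and 31.7 CPM in ARG1+ libraries. In ARG1- libraries it measured 31.3, 39.3, 43.1, 43.6 and 39.7 CPM. It was lower in the ARG1+ library of each animal, as were 21% of tested genes. The groups overlapped because the ARG1- library of m2 (31.3 CPM) lay below the ARG1+ library of m236 (31.7 CPM). Both libraries of m2 were the lowest of their group. *Nod1* fell by 26.5% from 39.4 ± 4.94 CPM to 28.9 ± 2.31 CPM (SD, n = 5 each). The log2 fold change was -0.44 (SE 0.0918, edgeR FDR = 0.00956, exact permutation p = 0.0159). The call was lost without both libraries of m6 (edgeR FDR = 0.0635), and kept in that fit with the animal as a block. *Nod2* RNA was 1.26 to 1.54 times that of *Nod1* per length in ARG1+ and 1.34 to 2.10 times in ARG1- libraries, with overlapping groups.

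Levels between genes were compared as RPKM, the CPM divided by the exon length in kilobases. In ARG1+ cells the order was *Cd14* (mean 1509 RPKM), *Tlr2* (317), *Tlr13* (48.6), *Tlr8* (22.6), *Tlr4* (14.0), *Ly96* (12.6), *Tlr1* (11.1), *Nod2* (9.29), *Tlr6* (9.05) and *Nod1* (6.55). The first 4 were separate from each other and from the rest in all libraries. Neighbors from *Tlr4* down to *Tlr6* overlapped in range, while *Nod1* lay below *Tlr6* in every library. In ARG1- cells *Cd14* (1474 RPKM), *Tlr2* (396) and *Tlr13* (39.2) led without overlap, followed by *Tlr8* (16.1), *Tlr4* (14.6), *Nod2* (14.4), *Tlr1* (12.2), *Ly96* (10.5), *Nod1* (8.94) and *Tlr6* (8.82). From *Tlr8* down, each gene overlapped the next. *Nod2* thus stood sixth in ARG1- cells and eighth in ARG1+ cells, and the ranges of these middle genes overlapped in both groups.

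Over all 12 TLR genes, the summed level was 455 to 492 RPKM in ARG1+ and 499 to 558 RPKM in ARG1- libraries. *Tlr2* made up 63.7 to 70.8% of that sum in ARG1+ and 72.6 to 75.0% in ARG1- libraries, without overlap. *Tlr13* made up 10.4% ± 1.71 in ARG1+ against 7.31% ± 0.676 in ARG1- cells (SD, n = 5 each), and *Tlr8* 4.83% against 2.99% on average. The shares sum to the whole, so a lower share of *Tlr2* raises the others, and no test was made on them.

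**Figure D4:**
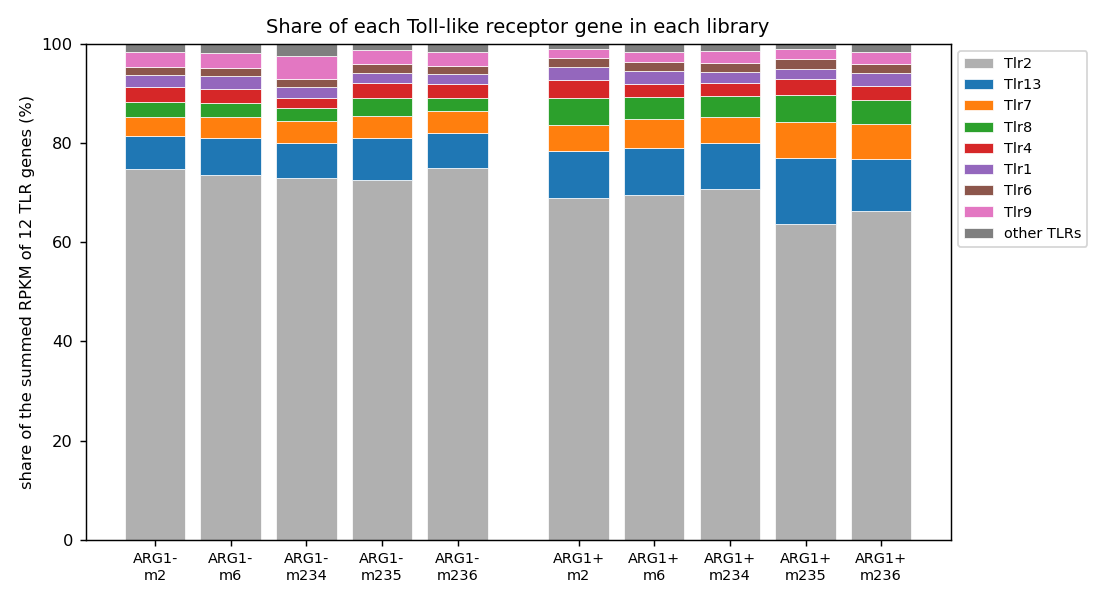
Share of each TLR gene in the summed RPKM of 12 TLR genes (vertical axis, %) for each library. *Tlr2* fills 72.6 to 75.0% of the ARG1- bars and 63.7 to 70.8% of the ARG1+ bars, and the bands of *Tlr13* and *Tlr8* are on average wider in ARG1+ cells.

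The other genes of the pathway were taken from 7 lists of 73 genes, of which 70 were tested. Of these, 4 rose, 12 fell and 54 did not pass the test, with a median log2 fold change of -0.0804. With the animal as a block the counts were 13 and 26. Over all 13740 tested genes 6.82% were called higher and 6.15% lower, and 16.8% and 18.3% with the block. The counts of each list below stand against the same shares. Among the 6 other TLRs, *Tlr7* rose and 3 fell, namely *Tlr5*, the flagellin receptor (log2 fold change -0.81, edgeR FDR = 0.00146), *Tlr9*, the receptor for CpG DNA (-0.80, FDR = 0.00553), and *Tlr11* (-1.07, FDR = 0.0391), a profilin receptor at only 0.382 to 2.24 CPM. The call of *Tlr11* was lost without the ARG1+ library of m2, m6, m235 or m236 (FDR up to 0.0937), and it fell under the count filter on leaving out 3 other libraries. At 0.382 to 0.775 CPM in ARG1+ libraries, *Tlr11* passed that filter only through ARG1- libraries. With the animal as a block 1 of the 6 was called higher and 4 lower. *Tlr5* and *Tlr9* were added to the named genes after their values were seen.

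Of 7 accessory proteins and chaperones, 1 rose (1 rose and 2 fell with the animal as a block). It was *Lbp*, whose product delivers lipopolysaccharide to CD14. *Lbp* was low, at 1.61 to 3.04 CPM in ARG1+ and 0.694 to 1.58 CPM in ARG1- libraries (log2 fold change 1.10, SE 0.267, edgeR FDR = 0.0199), and its FDR was 0.0509 without the ARG1+ library of m6. *Hsp90b1*, which encodes the chaperone that folds TLRs and had the highest CPM of this list, had a log2 fold change of 0.048 (edgeR FDR = 0.678).

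Of 10 tested adaptors, IRAKs and TRAFs, 5 fell and none rose, with a median log2 fold change of -0.225, and the blocked fit called 6 lower and 1 higher. *Ticam1*, which encodes TRIF, fell from 23.7 to 15.5 CPM on average (log2 fold change -0.60, edgeR FDR = 0.00217). *Pik3ap1*, which encodes the adaptor BCAP and had the highest CPM of the list, fell from 353 to 256 CPM (log2 fold change -0.46, edgeR FDR = 0.00105). The other 3, chosen after their values were seen, were *Myd88* (log2 fold change -0.32, FDR = 0.0132), an adaptor shared by most TLRs, *Irak2*, a kinase of the receptor complex (-0.32, FDR = 0.00783) and *Traf6*, a ubiquitin ligase (-0.20, FDR = 0.0242).

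Of 10 genes of NOD signaling and peptide transport, 1 passed the test, and 4 did with the animal as a block, all lower. *Slc15a4*, a lysosomal transporter that carries NOD ligands, fell with a log2 fold change of -0.43 (edgeR FDR = 0.0239, 0.0595 without the ARG1+ library of m2). Its relative *Slc15a3*, highest in CPM on this list, had a log2 fold change of -0.080 (edgeR FDR = 0.447). *Ripk2*, the kinase through which both NODs signal, was added after its value was seen and was at -0.063 (edgeR FDR = 0.705). Of 10 genes of the TAK1 and IKK kinases, 1 was called lower, and the blocked fit called 2 higher and 1 lower. *Ikbkb* fell with a log2 fold change of -0.18 (edgeR FDR = 0.0277), a call lost on leaving out any of 6 single libraries (FDR up to 0.0714). *Ikbke*, highest of these kinases in CPM, was at 0.15 (edgeR FDR = 0.135, and 0.0146 with the animal as a block).

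Of 12 tested negative regulators none passed edgeR's test without a block, 2 had an unadjusted p under 0.05 (*Tnip3* and *Peli1*, named after their values were seen), and the blocked fit called 2 higher and 4 lower. *Tnfaip3*, which encodes the deubiquitinase A20 and had the highest CPM of this list (*Nfkbia*, named after its value was seen, was higher per length), had a log2 fold change of 0.12 (edgeR FDR = 0.231, and 0.0416 with the block). Of 15 tested genes that TLR signaling is known to induce, 2 rose and 2 fell, and with the animal as a block 6 rose and 5 fell. *Cxcl1*, a neutrophil attractant, rose from 41.7 to 104 CPM (log2 fold change 1.31, SE 0.172, edgeR FDR = 8.95e-04), and *Cxcl2*, chosen after its value was seen, rose as well (0.62, FDR = 0.00538). *Il12b*, the shared subunit of IL-12 and IL-23, fell at low levels of 0.364 to 1.46 against 1.18 to 4.54 CPM (log2 fold change -1.69, SE 0.430, edgeR FDR = 0.0251). With a mean of 0.721 CPM in ARG1+ libraries, *Il12b* passed the filter of 1 CPM only through ARG1- libraries, where it is high. Its call needed ARG1- m2, ARG1+ m6 and ARG1+ m236 (FDR up to 0.0614 on leaving 1 of them out). *Cxcl10*, also chosen after its value was seen, fell (-0.62, FDR = 8.60e-04). *Il1b*, highest of the list in CPM, had a log2 fold change of 0.0044 (edgeR FDR = 0.992) whose sign changed with the setting.

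**Figure D5:**
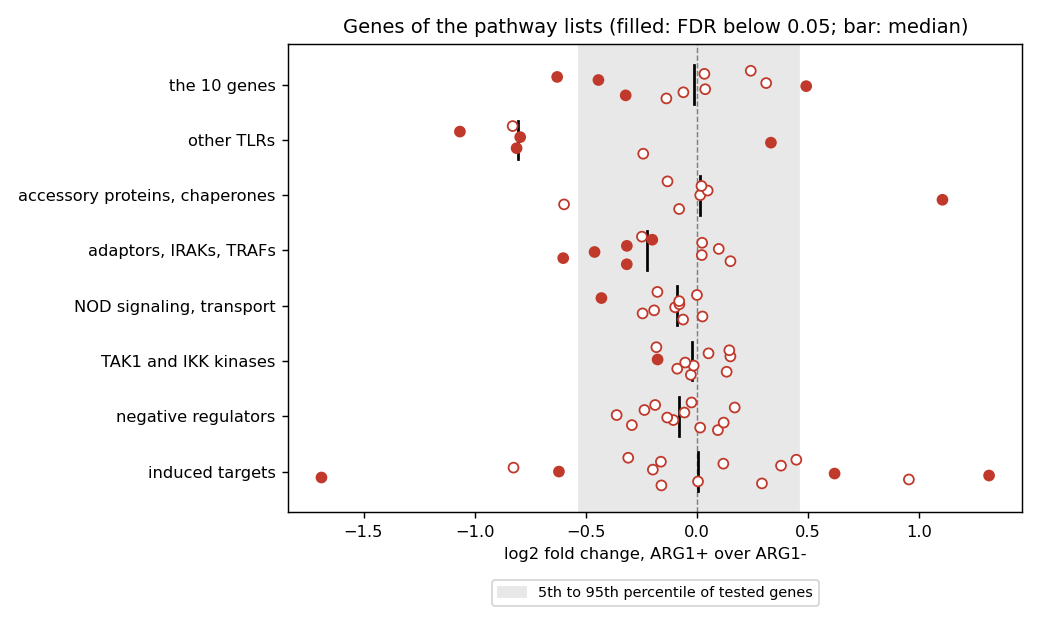
Log2 fold change between ARG1+ and ARG1- cells (horizontal axis) of the 10 genes and of the tested genes of each pathway list; each point is a gene, filled where the FDR is below 0.05, the black bar is the list's median and the grey band spans the 5th to the 95th percentile of all 13740 tested genes. The adaptors have 5 filled points below 0 and none above, and no gene of the negative regulators is filled.

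Markers of other cell types moved with the sort, and their part in the values above was not tested. The summed level of 10 microglia markers was 779 to 1170 CPM in ARG1+ and 853 to 2750 CPM in ARG1- libraries, lower in ARG1+ in all 5 animals, and 1 of the 10 passed the test (8 with the animal as a block). For 8 dendritic cell markers the sums were 11.8 to 28.0 and 27.2 to 47.9 CPM, again lower in all 5 animals, with 4 of 5 tested markers called lower. Of these, *Flt3* and *Zbtb46*, named after their values were seen, reached at most 0.425 and 0.653 CPM in ARG1+ libraries. They passed the filter of 1 CPM only through ARG1- libraries, where they are high. Border macrophage markers, 9 in number with *Cd209f* at 0 counts in all libraries, summed to 255 to 440 and 172 to 289 CPM, higher in ARG1+ in all 5 animals, with 3 of 4 tested markers called higher. *Cd163*, *Lyve1*, *Folr2* and *Cbr2*, at most 1.63 CPM in any library, also stayed under the filter. The highest means in ARG1+ and ARG1- cells were those of *Siglec1* (164 and 137 CPM) and *Ms4a7* (103 and 72.3 CPM). These genes were named after their values were seen. The 8 monocyte markers summed to 12537 to 16618 and 8386 to 13432 CPM, higher in all 5 animals, although 4 of them were called lower one by one. Neutrophil markers (9 genes) summed to 299.7 to 453 and 261 to 371 CPM. Of 4 tested neutrophil markers 1 was called lower, and the blocked fit called 2 higher and 2 lower. Oligodendrocyte markers (6 genes) summed to 117 to 152 and 104 to 155 CPM. B cell markers summed to 1.94 to 4.41 and 4.42 to 11.2 CPM, and T and NK cell markers to 1.55 to 2.14 and 1.47 to 3.63 CPM.

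For each called member, the 3 genes with the most similar profile over the 10 libraries were found by the root mean square (RMS) difference of centered log2 CPM among 13739 genes. They are a description of likeness only. For *Nod2* they were *Jak2* (RMS 0.075), *Naaa* (0.0765) and *Ptafr* (0.0884). For *Nod1* they were *Plekhf2* (0.0789), *Psme1* (0.0909) and *Gbp8* (0.0978). For *Tlr2* they were *Gpr35* (0.0514), *Nup62* (0.0527) and *Cars* (0.0529), and those of *Tlr8* included *Zfp677* (0.093) and *Mllt3* (0.107). The members' own RMS deviation from their mean was 0.175 for *Tlr2*, 0.262 for *Nod1*, 0.309 for *Tlr8* and 0.326 for *Nod2*.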

How the data were processed

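The authors made the deposited counts from 50-base single-end reads of directional libraries. Reads were aligned to GRCm38 with STAR (version 2.7.10b per the labels, which also name Picard) and counted on basic Ensembl transcripts with summarizeOverlaps in Union mode without secondary alignments, then summed to genes. The use of the strand was not given in the sources used here. Values are whole numbers for 55487 genes, 29542 of them with a count, and no column was left unused. Replicates of a group differed by more than counting noise, with chi-square values of 17.8 to 71.8 for each degree of freedom.

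The 13740 genes above 1 CPM in 3 or more libraries (holding 99.8% of counts) were tested with edgeR 4.0.16 in R 4.3.3, using TMM library sizes, quasi-likelihood F tests and Benjamini-Hochberg adjustment over all tested genes. A gene was called at an FDR below 0.05. No block was used, since none is named for the study's fit in the sources read. Both libraries of a pair came from 1 animal per the labels, and their residuals correlated at 0.361 to 0.664 against at most 0.0675 between animals, so the fit with the animal as a block is given beside each member whose call it changes and as counts for each list. Alternatives were limma-trend 3.58.1 (the study's test), DESeq2 1.42.0, other library sizes and filters, and each library or animal left out. SD is over 5 libraries. The p-values set the group difference against the spread between libraries of a group. With the animal as a block they set it against the spread of the differences within animals. RPKM used exon lengths of a GENCODE annotation of the same build.

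In counts simulated for this comparison on 13623 genes, edgeR without a block recovered 36 of 100 genes changed by a log2 of 0.5 and 87 of 100 changed by 1, with 8 false calls. The simulated noise had the spread of the unblocked fit, and an effect shared by both libraries of an animal was added to it. That effect was preset and not fitted to the correlations of the data. These numbers thus do not describe the fit with the animal as a block. They can also understate the recovery without a block, since the spread of the unblocked fit already holds differences between animals. Members, lists and tests were chosen with earlier results of these data known. Genes named are the members, *Arg1*, the tested gene of highest mean log2 CPM in each pathway list with its largest called increase and decrease, and the 3 genes most similar to each called member, of which 1 is not reported here. Markers of the sort are named as checks. The text marks any other gene as picked with its values in view. Columns of the 10 libraries were matched to samples by their names.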

Additional observations from a re-analysis of the deposited data

Results flagged for a closer look

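Of 50 groups of 5 libraries examined (25 named genes in each group), 2 held a library that stood apart by Dixon's ratio (limit 0.71), and chance alone flags about 1 in 20. *Tlr13* was at 180 CPM in the ARG1- library of m235 and at 149 to 157 CPM in the other 4 ARG1- libraries (ratio 0.715). The ARG1+ library of m235 was also the highest of its group for *Tlr13*, at 247 CPM. *Tnfaip3* was at 770 CPM in the ARG1- library of m234, the library with the lowest total, and at 664 to 693 CPM in the other 4 (ratio 0.717).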

How the results depend on the processing

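Of 716 values of the 25 named genes under 29 alternative settings, 621 kept direction and side of the threshold, 47 lost the call, 28 gained it and 20 changed sign. All sign changes were of genes without a call. *Tlr6* was -0.0033 with total counts. *Cd14* was -0.00686 with total counts, -0.0169 to 0.0859 with 1 library left out, -0.014 without m234, and -0.0166 without m234 with the block. *Il1b* was -0.00833 in limma-trend with and without the block, -0.0349 with total counts, -0.00867 with the replicate block in edgeR, -0.0798 to 0.133 with 1 library left out, -0.034 and -0.0764 without m2 and m234, and -0.0468 and -0.0957 for these with the block. Over all genes, 937 were higher and 845 lower. With the replicate block these were 2307 and 2519 in edgeR and 2250 and 2428 in limma-trend, with 3 members higher in both. DESeq2 gave 1307 lower and 2 members higher (*Tlr8* and *Tlr13*). Total counts gave 1282 lower, and upper-quartile factors gave 2 members higher. With the further limit of an absolute log2 fold change above 1, 77 genes were higher and 122 lower, and 0 members passed in either direction. With 1 library left out, 572 to 995 genes were higher and 481 to 873 lower, with 1 to 2 members higher and 3 lower. Single libraries that moved a count by over 1.5 times were ARG1+ m2 (572 higher, 481 lower), ARG1+ m6 (518 lower) and ARG1- m2 (561 lower), and ARG1- m235 or ARG1+ m234 for the members (2 higher). Both libraries of an animal left out gave 372 higher and 316 lower without m2, 360 and 284 without m6, and 500 and 412 without m236, with 0 members higher in these 3, and 2 members higher without m234 or m235. Members lower were 2 without m6 and 3 otherwise. With the block and an animal left out, added after seeing the data, higher and lower genes were 1478 and 1612 (m2), 1681 and 1845 (m6), 2706 and 2823 (m234), 1762 and 1816 (m235) and 1926 and 2119 (m236), with 2 to 3 members higher and 3 to 4 lower. *Tlr1* was called in that fit only without m236 (-0.18, edgeR FDR = 0.0266). The causes were not tested. At 45 counts in 1 library, *Ly96* is the member that depth limits most.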

Other observations

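Several pathway genes outside the naming rule, chosen here after their values were seen, passed the test only with the animal as a block. *Ly86*, which encodes the MD-1 partner of RP105, was at 96.2 to 159 CPM in ARG1+ and 155 to 312 CPM in ARG1- libraries and lower in all 5 animals (log2 fold change -0.60, edgeR FDR = 0.0547, and 6.99e-04 with the block). *Tlr12* was at 3.03 to 8.52 and 5.15 to 15.5 CPM (log2 fold change -0.83, edgeR FDR = 0.111, and 4.95e-04 with the block). *Il6*, an inflammatory cytokine, was at 8.52 to 29.3 and 5.47 to 15.0 CPM and higher in ARG1+ in all 5 animals (log2 fold change 0.95, edgeR FDR = 0.0776, and 1.42e-04 with the block). *Unc93b1*, which encodes the carrier of endosomal TLRs, was at 681 to 801 and 730 to 918 CPM and lower in all 5 animals (log2 fold change -0.13, edgeR FDR = 0.237, and 0.0194 with the block).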
